A study of Homo sapiens with 15 samples.

Results

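The metallothionein genes described here are MT1E, MT1F, MT1G, MT1H, MT1M, MT1X and MT2A, measured on Affymetrix arrays in the breast cancer cell line CAL51 and in CALDOX, a line obtained from it by continued growth in doxorubicin. Members were the probe sets, the array's sets of short oligonucleotides that together report a transcript, whose only gene symbol in the platform annotation was one of these 7 names. The rule itself used no measured value, but the 7 genes were chosen with earlier results of these data known. It gave 11 probe sets of 7 genes, out of 54613 probe sets and 19775 named genes.

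The study set a long-term resistant state beside the short-term response to doxorubicin, an anthracycline that poisons topoisomerase II and breaks DNA. Each of 5 groups had 3 arrays, 1 for each of 3 independent cultures: untreated CAL51; CAL51 after 24 h in 0.4 µM doxorubicin; CAL51 after 48 h at the same dose; untreated CALDOX; and CALDOX treated for 24 h with 4 µM doxorubicin after 3 passages without drug. CALDOX had been selected in 0.4 µM doxorubicin until it grew in the drug, and the labels say that it was routinely kept in it. They do not say whether untreated CALDOX cultures were drug-free when harvested, so the step from untreated to treated CALDOX may hold a change in drug-free passages besides the 4 µM dose, and these cannot be told apart. All groups come from 1 parent cell line, and the labels do not say whether CALDOX is 1 clone.

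Metallothioneins are small, cysteine-rich proteins that bind zinc and copper, take up toxic metals such as cadmium, and can scavenge reactive oxygen species. The genes of the MT1 group and MT2A lie together on the long arm of chromosome 16. Zinc turns them on through the transcription factor MTF1, which binds metal response elements in their promoters, and glucocorticoids and oxidative stress also raise several of them. In mouse hearts, extra metallothionein is known to lessen the damage that doxorubicin does.

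Mature metallothionein transcripts resemble each other closely. Of the 11 probe sets, 9 carry the suffix _x_at, which the maker gives to sets with probes that can also bind other transcripts, so these 9 may each report several members at once. The exceptions are MT1M 217546_at and MT1G 210472_at. The annotation names 204326_x_at as MT1X, whereas the transcript accession it was designed on belongs to MT1L, another metallothionein gene, in the RefSeq gene table. MT1E, MT1F, MT1G and MT1X have 2 probe sets each, and MT1H, MT1M and MT2A have 1 each.

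The promoters of 3 of the 7 genes were found in the RefSeq table (GRCh38.p14), and they are shown as background. Those of MT1E, MT1F, MT1G and MT1M were not found there. Any part of promoter sequence in the changes below was not tested. Each run is the 250 bases upstream of the gene start on the plus strand, with matches to the core of the metal response element in capitals. The core was searched as TGCACNC or TGCGCNC on both strands, so a match on the other strand reads GNGTGCA or GNGCGCA.

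MT2A, chr16:56608334-56608583: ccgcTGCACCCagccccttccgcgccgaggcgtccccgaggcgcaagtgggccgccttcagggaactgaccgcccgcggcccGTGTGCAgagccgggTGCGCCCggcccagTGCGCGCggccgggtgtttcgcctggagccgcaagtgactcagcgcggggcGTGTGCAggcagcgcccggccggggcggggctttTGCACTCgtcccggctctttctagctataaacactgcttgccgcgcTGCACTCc
MT1H, chr16:56669564-56669813: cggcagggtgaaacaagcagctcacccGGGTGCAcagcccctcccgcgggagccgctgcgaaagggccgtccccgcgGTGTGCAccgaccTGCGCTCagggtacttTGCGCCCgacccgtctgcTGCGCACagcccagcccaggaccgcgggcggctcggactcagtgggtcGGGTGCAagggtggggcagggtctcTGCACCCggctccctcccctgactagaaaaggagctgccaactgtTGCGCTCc
MT1X, chr16:56682220-56682469: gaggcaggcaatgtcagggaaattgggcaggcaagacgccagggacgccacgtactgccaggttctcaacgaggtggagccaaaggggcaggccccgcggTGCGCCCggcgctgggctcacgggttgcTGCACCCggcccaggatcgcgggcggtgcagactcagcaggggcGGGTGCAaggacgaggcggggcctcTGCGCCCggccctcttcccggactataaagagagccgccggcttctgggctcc

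MT1H held 8 such places, MT2A 7 and MT1X 4. Of all 35116 promoter windows of this length, 24.8% held the core at least once, whereas 0.0171% held 8 or more, 0.0313% held 7 or more and 0.37% held 4 or more. A TATA box, searched as TATAAA on both strands, was present in the MT2A and MT1X windows and not in that of MT1H, against 10.7% of all windows. GGGCGG, the core of the GC box, occurred at 2 places in MT2A, 1 in MT1H and 2 in MT1X, and 42.6% of all windows held it. The MT2A window alone of the 3 held TGACTCA, an AP-1 sequence, which was in 4.2% of all windows. These matches describe letters in the windows, and no binding was measured in this study.

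Metallothionein signals were higher in the resistant line than in the parental line. These are bulk RNA samples, in which more cells with a transcript and more transcript in each cell cannot be told apart. In untreated CALDOX against untreated CAL51, 10 of the 11 probe sets were called higher and 0 lower at an adjusted p under 0.05 (limma, Benjamini-Hochberg adjustment over all 54613 probe sets). At an unadjusted p under 0.05 the counts were also 10 and 0. Over the whole array 9.32% of probe sets were called higher and 9.75% lower in this comparison. The members' median log2 fold change was 0.71, against -0.01 over all probe sets tested. Values below are log2 intensities, taken as such from their range, and a fold change is given with its limma standard error and n = 3 arrays in each group.

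**Figure D1:**
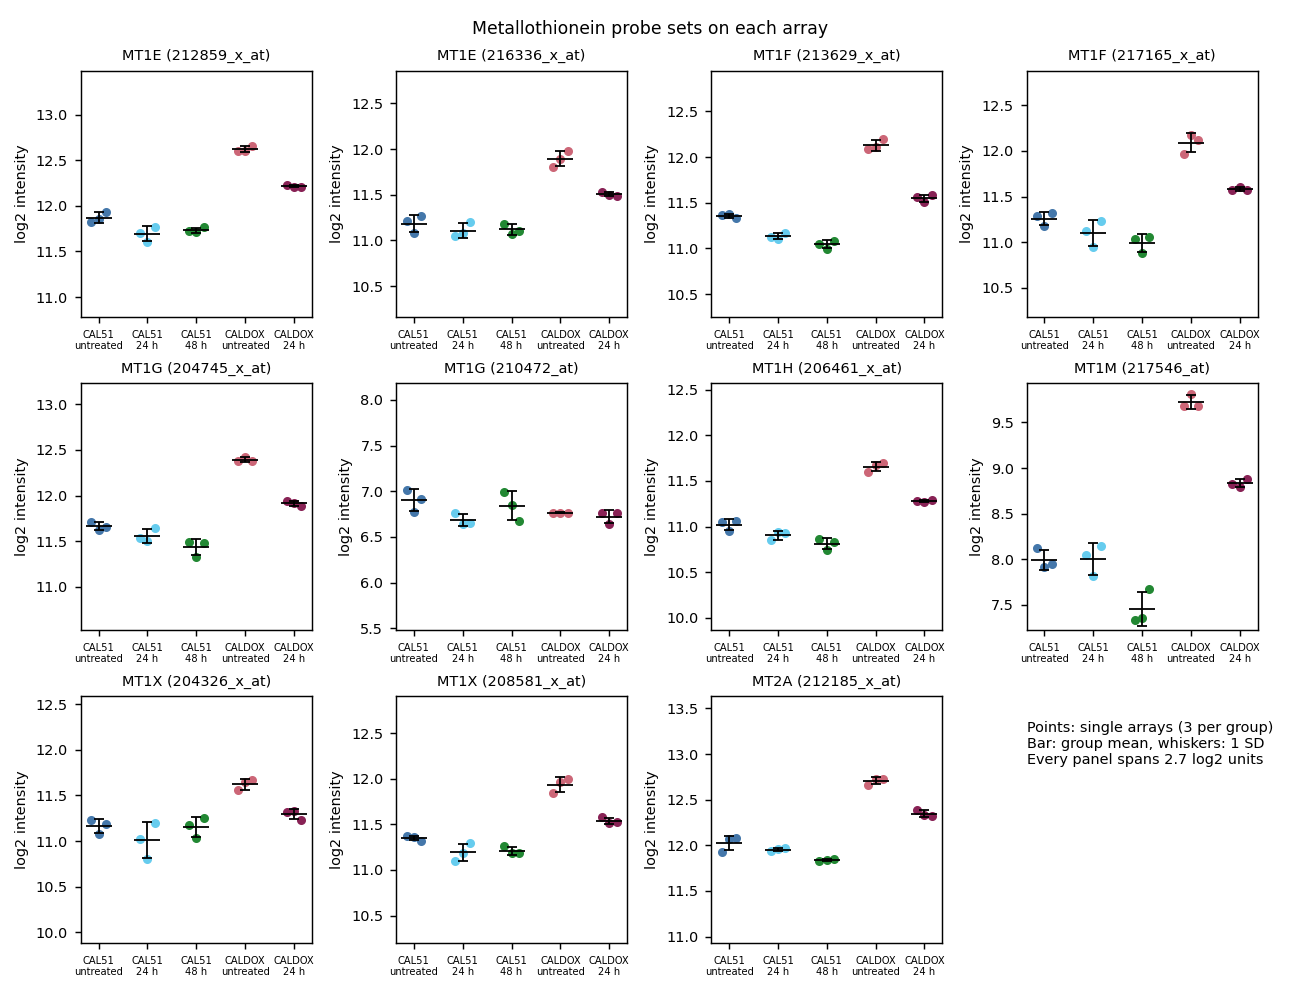
Log2 intensity (vertical axis) of each of the 11 metallothionein probe sets on every array, by group (horizontal axis), with 3 points a group, a bar at the group mean and whiskers of 1 SD. All panels span the same number of log2 units; untreated CALDOX is the highest group in 10 panels, and MT1G 210472_at is the exception.

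MT1M, a member of the MT1 group that is annotated here by a probe set without the _x_at suffix, changed most. Its values were 8.12, 7.92 and 7.95 in untreated CAL51 and 9.68, 9.82 and 9.68 in untreated CALDOX. The lowest CALDOX array therefore lay above the highest CAL51 array. The difference was 1.73 ± 0.10 (adjusted p = 8.49e-10), a 3.32-fold increase with a 95% confidence interval of 2.87 to 3.84. Among all probe sets ordered from the most increased down, MT1M stood at position 170 of 54613.

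MT2A, the main metallothionein of most human tissues, read 11.93, 12.07 and 12.08 in untreated CAL51. It read 12.67, 12.73 and 12.73 in untreated CALDOX. All CALDOX arrays were above all CAL51 arrays, by a mean of 0.68 ± 0.06 (adjusted p = 1.96e-07), or 1.61-fold (95% confidence interval 1.47 to 1.75).

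Both probe sets of MT1F, another zinc-binding MT1 protein, rose by similar amounts. On 213629_x_at the 3 CAL51 values were 11.36, 11.38 and 11.33 and the CALDOX values 12.08, 12.11 and 12.20, a change of 0.77 ± 0.06 (adjusted p = 3.78e-08). On 217165_x_at they were 11.28, 11.18 and 11.32 against 11.97, 12.18 and 12.12, a change of 0.83 ± 0.08 (adjusted p = 7.89e-07). The groups did not overlap on either.

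MT1E gave the same picture on both its sets. The values on 212859_x_at were 11.83, 11.85 and 11.94 in CAL51 and 12.60, 12.61 and 12.66 in CALDOX, 0.75 ± 0.06 higher (adjusted p = 8.5e-08). Those on 216336_x_at were 11.21, 11.08 and 11.27 against 11.81, 11.90 and 11.98, 0.71 ± 0.07 higher (adjusted p = 9.58e-07). CALDOX arrays were above CAL51 arrays without exception on both sets.

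The 2 probe sets of MT1G disagreed. On 204745_x_at, CAL51 read 11.71, 11.63 and 11.65 and CALDOX 12.38, 12.42 and 12.38, a rise of 0.73 ± 0.06 (adjusted p = 2.31e-07). On 210472_at, CAL51 read 7.02, 6.78 and 6.91 and CALDOX 6.77, 6.76 and 6.77, a difference of -0.14 ± 0.08 (adjusted p = 0.312). So 1 set was clearly higher in CALDOX, while on the other the CALDOX arrays lay just below the CAL51 arrays and the difference did not pass the test. Set 210472_at read low, with group means of 6.69 to 6.90, below the array medians of 6.94 to 7.03. Whether it held signal above background, and which set follows MT1G transcript, was not tested.

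MT1H and MT1X, the MT1 genes whose promoters are shown above, also rose. MT1H values were 11.05, 10.95 and 11.06 in CAL51 and 11.60, 11.68 and 11.69 in CALDOX, 0.64 ± 0.06 higher (adjusted p = 6.62e-07). MT1X 208581_x_at went from 11.37, 11.36 and 11.32 to 11.84, 11.96 and 12.00, a rise of 0.58 ± 0.07 (adjusted p = 4.6e-06). The set designed on the MT1L transcript, 204326_x_at, went from 11.23, 11.08 and 11.18 to 11.55, 11.64 and 11.66, 0.46 ± 0.09 higher (adjusted p = 0.00116). None of these 3 sets had overlapping groups.

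Across the 9 _x_at sets the increase thus ran from 1.37-fold to 1.78-fold. Counting arrays rather than test results, 10 of 11 members had every CALDOX array above every CAL51 array, which was true of 14.8% of all probe sets. Leaving out any one of the 6 arrays left the count of called members at 10. With the _x_at sets set aside only MT1M, of the remaining pair, was called.

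**Figure D2:**
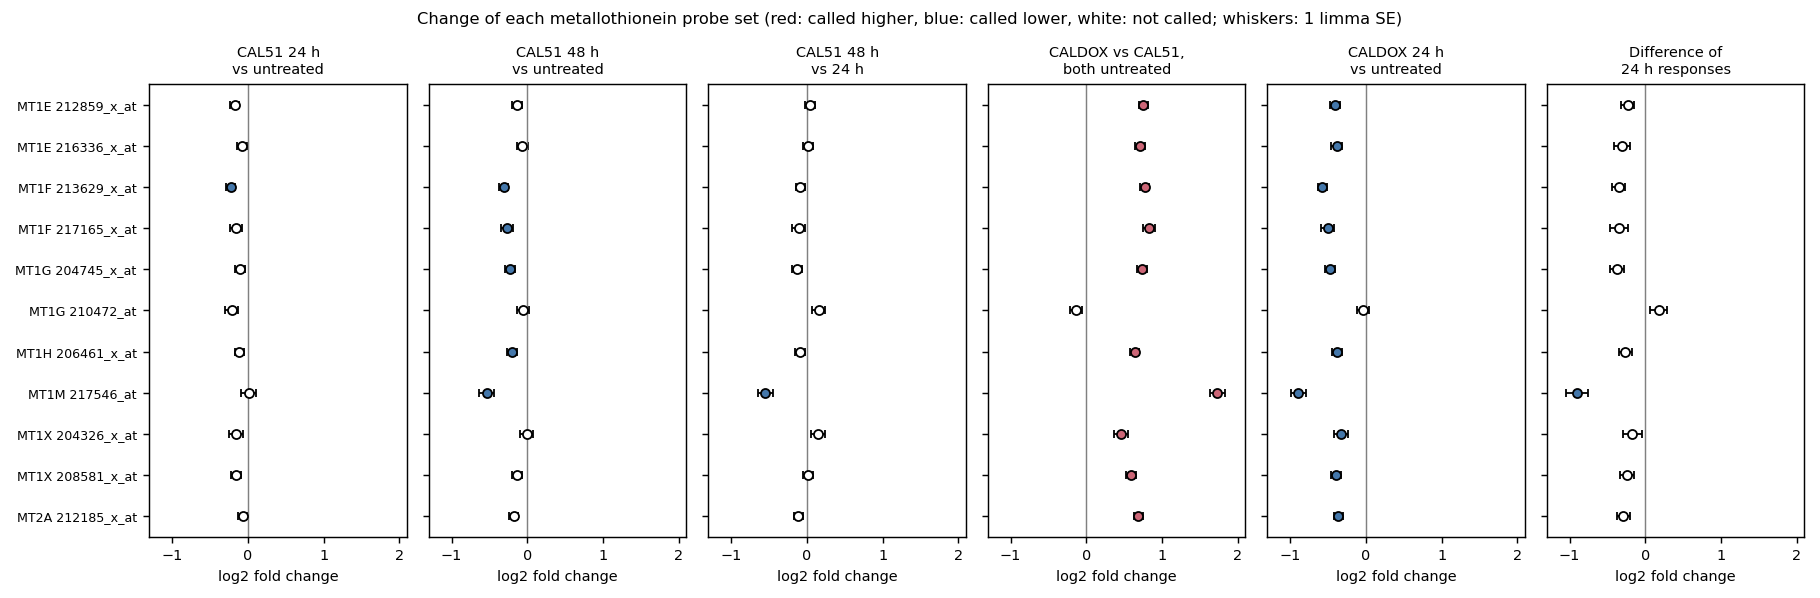
Log2 fold change (horizontal axis) of each metallothionein probe set (vertical axis) in the 6 comparisons, with whiskers of 1 limma standard error; filled points passed the adjusted p threshold of 0.05. The 10 sets called higher in untreated CALDOX are the 10 called lower after CALDOX was treated, and in CAL51 the called sets number 1 at 24 h and 5 at 48 h.

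Treated CALDOX cells had lower metallothionein levels than untreated CALDOX cells. After 24 h in 4 µM doxorubicin, 10 of the 11 members were called lower and 0 higher by limma, with the same counts at an unadjusted p under 0.05. Of all probe sets 2.72% were called lower and 3.17% higher. The median member changed by -0.40 and the median probe set by 0.00. This comparison shares the untreated CALDOX arrays with the one above, so the 2 are not independent.

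MT1M again changed most: the treated arrays read 8.83, 8.79 and 8.88, against 9.68, 9.82 and 9.68 untreated. The groups stood well apart, and the change was -0.89 ± 0.10 (adjusted p = 2.99e-05), 1.86-fold lower. MT1M was at position 12 of 54613 when probe sets were ordered from the most decreased up.

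The _x_at sets fell by less, 1.25-fold to 1.49-fold. The largest decrease among them was that of MT1F 213629_x_at, whose treated values were 11.57, 11.51 and 11.58 (change -0.58 ± 0.06, adjusted p = 1.43e-05). The second MT1F set read 11.57, 11.61 and 11.57 after treatment, a change of -0.50 ± 0.08 (adjusted p = 0.000945). Both MT1F sets were thus below every untreated CALDOX array, where the lowest values were 12.08 and 11.97.

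MT2A read 12.39, 12.33 and 12.32 in treated CALDOX, a change of -0.36 ± 0.06 (adjusted p = 0.00118). MT1G 204745_x_at read 11.94, 11.92 and 11.88, a change of -0.48 ± 0.06 (adjusted p = 0.000211). In both cases no treated array reached an untreated one. MT1G 210472_at, which was low in every group, read 6.77, 6.65 and 6.76, which overlapped the untreated values (change -0.04 ± 0.08, adjusted p = 0.892).

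MT1E stood at 12.22, 12.20 and 12.21 on 212859_x_at after treatment, a change of -0.41 ± 0.06 (adjusted p = 0.000531). It stood at 11.53, 11.50 and 11.49 on 216336_x_at, a change of -0.39 ± 0.07 (adjusted p = 0.00262). MT1H stood at 11.28, 11.27 and 11.29, a change of -0.38 ± 0.06 (adjusted p = 0.00102). Treated and untreated arrays did not overlap for any of these.

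MT1X 208581_x_at read 11.58, 11.52 and 11.52 in treated CALDOX, a change of -0.40 ± 0.07 (adjusted p = 0.00136). On 204326_x_at the treated values were 11.32, 11.33 and 11.23 and the change was -0.33 ± 0.09 (adjusted p = 0.0403). That last call was the weakest of the 10. It was lost when any one of the 6 arrays was left out, which left 9 called members each time, and when the arrays were centred on their medians. Non-overlapping groups with lower treated arrays were found for 10 of 11 members and for 13% of all probe sets.

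The treated CALDOX cells nevertheless kept more metallothionein signal than untreated CAL51 cells on most members. Of the log2 gain of untreated CALDOX over untreated CAL51, between 51.5% (MT1M) and 74.9% (MT1F 213629_x_at) was absent in treated CALDOX. The median was 60.2% over the 10 sets that had gained. For MT2A this share was 52.9% and for MT1H 59.5%. Gain and loss both use the untreated CALDOX mean, so a high reading there would enlarge both. Dose and drug-free passages cannot be told apart here either. Treated CALDOX arrays were all above every untreated CAL51 array on 9 of the 11 members and on 17.2% of all probe sets. On 204326_x_at and on MT1G 210472_at they were not. MT1M remained 0.84 above its untreated CAL51 mean on the log2 scale, and MT2A 0.32 above.

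In parental CAL51, 24 h of 0.4 µM doxorubicin moved metallothioneins little. Only MT1F 213629_x_at was called lower and 0 members were called higher (limma), where 2.64% of all probe sets were called lower and 5.45% higher. At an unadjusted p under 0.05 the counts were 4 lower and 0 higher. The median member changed by -0.16 and the median probe set by -0.02.

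MT1F 213629_x_at read 11.12, 11.11 and 11.17 at 24 h against 11.36, 11.38 and 11.33 untreated, a change of -0.22 ± 0.06 (adjusted p = 0.0258). The arrays did not overlap, but the call was lost without any one of 5 of the 6 arrays, all but CAL51 24 h replicate 3. It was also lost when only these 6 arrays were fitted. MT1M read 8.05, 7.81 and 8.15, values that straddled the untreated ones, with a change of 0.01 ± 0.10 (adjusted p = 0.974; 95% confidence interval 0.871-fold to 1.16-fold). MT2A, at 11.94, 11.95 and 11.97, changed by -0.07 ± 0.06 (adjusted p = 0.587). In all, 5 members had 24 h arrays entirely below the untreated arrays, as had 10.6% of all probe sets.

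By 48 h more members were lower. The count was 5 called lower and 0 higher (limma), or 8 lower and 0 higher at an unadjusted p under 0.05, where 7.53% of all probe sets were called lower and 6.99% higher. The median member changed by -0.18 against -0.02 for all probe sets, and all 11 estimates were below 0.

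The largest of these changes was in MT1M, at 7.34, 7.36 and 7.67 after 48 h. All 3 arrays were below the untreated ones, by 0.54 on average (change -0.54 ± 0.10, adjusted p = 0.0011), or 1.45-fold. MT1F 213629_x_at read 11.05, 11.00 and 11.08 and changed by -0.31 ± 0.06 (adjusted p = 0.0014). MT1F 217165_x_at, at 11.04, 10.88 and 11.06, changed by -0.27 ± 0.08 (adjusted p = 0.0352). The MT1F sets were both clear of their untreated arrays.

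MT1G 204745_x_at read 11.49, 11.33 and 11.48 at 48 h (change -0.23 ± 0.06, adjusted p = 0.0239). MT1H read 10.87, 10.74 and 10.83 (change -0.20 ± 0.06, adjusted p = 0.0334). MT2A read 11.83, 11.84 and 11.85, below all untreated arrays, and its change of -0.18 ± 0.06 missed the threshold (adjusted p = 0.0519). The MT1E and MT1X sets and MT1G 210472_at also did not pass, with changes from -0.14 to -0.01. For 8 members the 48 h arrays lay entirely below the untreated arrays, against 15.7% of all probe sets.

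The 5 calls at 48 h were not equally firm. Only 2 of them, MT1M and MT1F 213629_x_at, held without untreated CAL51 replicate 1, without untreated CAL51 replicate 3 or without CAL51 48 h replicate 2. In the first of these fits MT2A was called as well (adjusted p = 0.0271 by limma), which made 3 called members. The same 2 held when only the 6 arrays compared were fitted or when arrays were centred on their medians.

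Between 24 h and 48 h, MT1M alone of the members was called, and it was lower. Its 48 h arrays were all below its 24 h arrays, by -0.55 ± 0.10 (adjusted p = 0.00295), 1.46-fold, at position 280 of 54613 from the most decreased. That call was lost when only these 6 arrays were fitted. No member was called higher (limma; 0 also at an unadjusted p under 0.05), where 4.27% of all probe sets were called lower and 2.25% higher. The 4 members whose 48 h arrays all lay below their 24 h arrays compare with 11.3% of all probe sets. The other members' changes over this interval ran from -0.13 to 0.15.

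The 24 h responses of the lines were then compared directly, as the CALDOX change minus the CAL51 change. The doses differed between the lines (4 µM and 0.4 µM) and only CALDOX had passages without drug, so line, dose and passages cannot be told apart. MT1M was the only member called, with a difference of -0.90 ± 0.14 (adjusted p = 0.00378). No member was called higher (limma; 0 also at an unadjusted p under 0.05, where 9 were lower). Calls were rare in this comparison, at 0.549% of all probe sets lower and 0.335% higher. The next smallest adjusted p-values were those of MT1F 213629_x_at (-0.35 ± 0.08, adjusted p = 0.0606) and MT1G 204745_x_at (-0.38 ± 0.09, adjusted p = 0.0692). The members' median difference was -0.29 against 0.01 for all probe sets.

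Setting the 5 groups in order of level, the _x_at sets and MT1M had untreated CALDOX first, treated CALDOX second and the CAL51 groups below. Untreated and treated CALDOX did not overlap on any of these 10 sets. Among the CAL51 groups the order varied. For MT2A it ran untreated, 24 h, 48 h, with the first pair overlapping and the second not. For MT1F 213629_x_at it was the same with no overlaps. For MT1M the 24 h and untreated groups overlapped and the 48 h group lay below both. On both MT1E sets and both MT1X sets the arrays of 24 h and 48 h overlapped, and the 24 h mean was the lower. On MT1G 210472_at every group overlapped its neighbour in the order, and the means of all 5 groups spanned 0.22, as against 2.27 for MT1M and 0.87 for MT2A.

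The 9 _x_at sets varied together from array to array. Over the 15 arrays the 36 pairs among them had Pearson correlations of 0.847 to 0.991, values that are set mostly by the differences between groups and that may also reflect shared target sequence. Once each group's mean was taken away, the correlations of what remained ran from -0.07 to 0.91 with a median of 0.46. MT1M correlated with the _x_at sets at 0.846 to 0.982. MT1G 210472_at, which read low in every group, did not follow them, at -0.24 to 0.00.

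**Figure D3:**
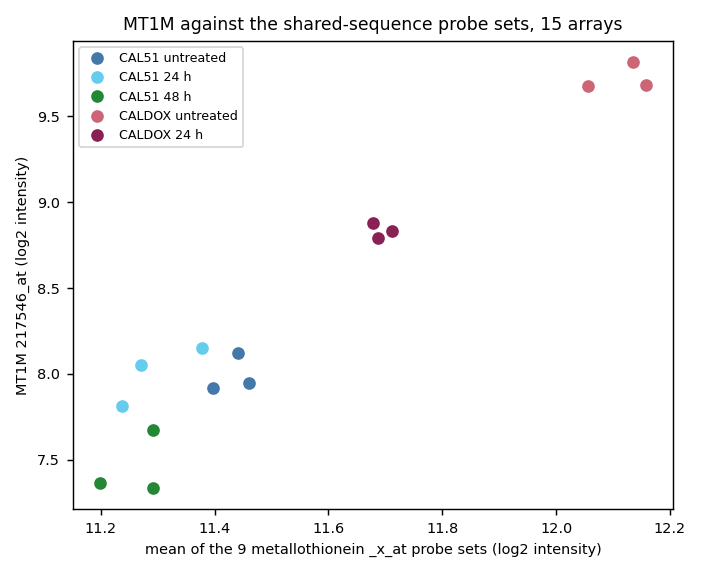
MT1M 217546_at (vertical axis, log2 intensity) against the mean of the 9 metallothionein _x_at probe sets (horizontal axis, log2 intensity) on each of the 15 arrays, coloured by group. Untreated CALDOX arrays lie at the upper right, treated CALDOX arrays between, and the CAL51 48 h arrays lowest on the vertical axis.

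MT1M's change was larger than that of the _x_at mean in 4 of the 5 comparisons between groups. Each array's MT1M value was set against the mean of its 9 _x_at values, and the gap was compared between groups by an exact two-sided permutation test, whose smallest possible p with 3 arrays against 3 is 0.1. Between untreated CAL51 and untreated CALDOX the _x_at mean rose by 0.68 and MT1M by 1.73, so the gap moved by 1.05 (exact p = 0.1). After treatment of CALDOX it moved by -0.47 (exact p = 0.1), in CAL51 from untreated to 48 h by -0.37 (exact p = 0.1), and from 24 h to 48 h by -0.51 (exact p = 0.1). In these 4 comparisons the gaps of the groups did not overlap. At 24 h in CAL51 the gap moved by 0.15 (exact p = 0.2) and the groups overlapped. The _x_at mean was brighter than MT1M on every array, and the _x_at sets may each report several members. Whether these sets and MT1M report changes on an equal scale was not tested.

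Outside the 7 genes, 13 further metallothionein names were looked up, of which 3 had a probe set of their own and 10 were not analysed here. MT1HL1, on 211456_x_at, moved as the MT1 sets did: 0.55 ± 0.06 in untreated CALDOX (adjusted p = 1.11e-06), -0.38 ± 0.06 after its treatment (adjusted p = 0.000435) and -0.19 ± 0.06 in CAL51 at 48 h (adjusted p = 0.031). MT4, known from stratified epithelia, was 0.30 ± 0.09 higher in untreated CALDOX (adjusted p = 0.0236) and passed in no other comparison. MT3, the metallothionein best known from brain, differed by 0.12 ± 0.10 there (adjusted p = 0.545) and passed in none. In untreated CAL51 and untreated CALDOX, MT4 read 7.40 and 7.71 and MT3 7.63 and 7.75, against array medians of 6.94 to 7.03. Whether either set held signal above background was not tested.

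Genes of metal response outside the family did not all move one way. Any part of metals or of MTF1 activity in the metallothionein changes was not tested. MTF1, which activates metallothionein promoters, was not called on any of its 3 probe sets in any comparison, with differences of -0.13 to 0.09 between the untreated lines. Of the list's 11 probe sets, 2 were higher and 2 lower in untreated CALDOX, where 9.32% of all probe sets were higher and 9.75% lower. SLC30A1, a zinc exporter that MTF1 also activates, was 0.83 ± 0.12 higher on 228181_at (adjusted p = 6.03e-05) and 0.20 ± 0.06 higher on 212907_at (adjusted p = 0.0193). ZFAND2A, an arsenite-inducible gene, was lower by -0.38 ± 0.07 (adjusted p = 0.000381). HMOX1, the haem oxygenase that oxidative stress and metals induce, was lower by -0.41 ± 0.09 (adjusted p = 0.00432). SLC30A1 242716_at was not called, with means of 5.22 in untreated CAL51 and 5.34 in untreated CALDOX. No set of SELENOW or SLC39A10, the list's remaining genes, was called in this comparison.

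Under treatment the probe sets of these genes did not all go one way. SLC30A1 rose on 1 of its 3 sets in treated CALDOX, 212907_at, by 0.21 ± 0.06 (adjusted p = 0.0408). The other sets, 228181_at and 242716_at, changed by 0.05 ± 0.12 and -0.04 ± 0.10 and did not pass. In CAL51, 212907_at again was the only SLC30A1 set to pass, rising by 0.22 ± 0.06 at 24 h (adjusted p = 0.0246) and by 0.32 ± 0.06 at 48 h (adjusted p = 0.000775). ZFAND2A rose by 0.25 ± 0.07 in treated CALDOX (adjusted p = 0.0347) and was lower in CAL51, with changes of -0.24 ± 0.07 at 24 h (adjusted p = 0.0324) and -0.24 ± 0.07 at 48 h (adjusted p = 0.0218).

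Genes that move or handle zinc, copper and iron were counted in untreated CALDOX against untreated CAL51. Among the zinc exporters of the SLC30 family 3 of 26 probe sets were higher and 2 lower. SLC30A1 belongs to this family, so its sets count both here and in the metal-responsive list above. Among the zinc importers of the SLC39 family 3 of 31 were higher and 2 lower: SLC39A11 rose by 0.84, SLC39A4 by 0.43 and SLC39A7 by 0.37, and both lower sets were SLC39A6. In copper handling 7 of 24 were higher and 1 lower. The 7 comprised 4 sets of COX11, a copper chaperone of cytochrome oxidase (0.38 to 0.79), and 1 each of ATOX1, SCO2 and STEAP2, and the lower one was SOD1 (-0.34). In iron handling 6 of 26 were higher, among them NCOA4 at 0.52 and TFRC at 0.48, and 2 were lower, both of SLC11A2. These shares can be read against the 9.32% higher and 9.75% lower of all probe sets. In treated CALDOX the counts of the 4 lists were 2, 0, 1 and 1 higher and 0 lower in each, by limma, with 1, 1, 1 and 1 lower at an unadjusted p under 0.05. Of all probe sets 3.17% were called higher and 2.72% lower in that comparison.

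Targets of the glucocorticoid receptor went both ways. Any part of this receptor in the metallothionein changes was not tested. In untreated CALDOX 3 of 23 probe sets were higher and 4 lower, where 9.32% of all probe sets were higher and 9.75% lower. SGK1, a kinase induced by glucocorticoids, rose by 4.92, and both sets of CEBPD rose, by 0.33 and 0.51. All 3 called sets of FKBP5, an immunophilin induced by glucocorticoids, fell, with changes of -1.49 to -1.14, and so did ERRFI1, with -1.16.

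No probe set of the genes that flank the cluster on chromosome 16 was called higher in untreated CALDOX. Of all probe sets 9.32% were called higher and 9.75% lower there, so few calls would fall in a list this short. In untreated CALDOX 0 of the 22 probe sets of 9 flanking genes were called higher (limma; 0 also at an unadjusted p under 0.05) and 4 were lower. The lower ones were both OGFOD1 sets that passed (-0.25 and -0.24), NUP93 (-0.25), a nuclear pore gene, and HERPUD1 (-0.46), a stress gene of the endoplasmic reticulum. OGFOD1 lies on the side of MT4, and NUP93 on the side of MT1X. In treated CALDOX, NUDT21, a gene of mRNA 3' end processing on the OGFOD1 side, fell on all 3 of its sets (-0.33, -0.46 and -0.44), while HERPUD1 rose by 0.44. The levels of flanking and metallothionein sets are not compared here, only their changes.

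**Figure D4:**
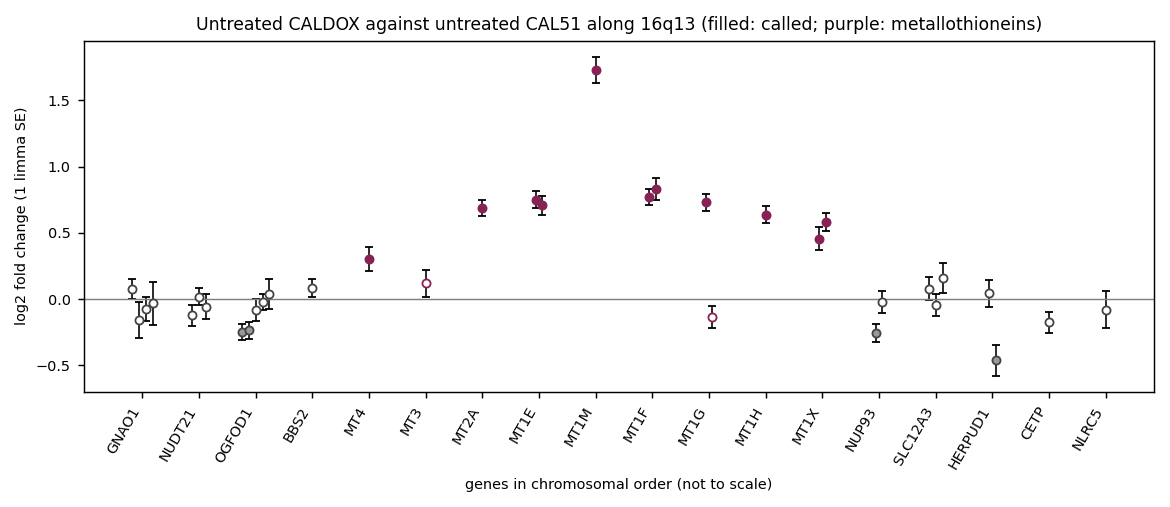
Log2 fold change of untreated CALDOX against untreated CAL51 (vertical axis, whiskers of 1 limma standard error) for probe sets of the metallothionein cluster (purple) and of its neighbours (grey), in chromosomal order and not to scale; filled points passed the threshold. MT1M stands highest at 1.73, and no neighbouring gene was called higher.

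The genes most like the metallothioneins across the 15 arrays were found by Pearson correlation with MT2A and with MT1M, among 30958 probe sets of single named genes with a mean of at least 6. For MT2A these were FBLN1 (0.988), SH3RF3 (0.978), KCNE3 (0.975), MAP3K4 (0.974) and RTN4IP1 (0.973). For MT1M they were FBLN1 (0.988), PCMT1 (0.981), ERI1 (0.980), ZNF200 (0.978) and MECOM (0.977). FBLN1, which encodes an extracellular matrix protein, led both lists, with group means of 8.67, 8.57 and 8.32 in CAL51 untreated, at 24 h and at 48 h, and of 9.66 and 9.09 in untreated and treated CALDOX. These correlations describe 5 groups of arrays and rest largely on the difference between the lines.

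Arrays of the same group correlated at 0.993 to 0.998, and array medians were 6.94 to 7.03. The deposited values were already normalized between arrays, so near-equal medians do not measure quality. RNA quality was not assessed here. Of the probe sets for CDKN1A, MDM2, GDF15 and FAS, textbook p53 targets, 15 of 19 rose in CAL51 at 24 h, 16 at 48 h and 14 in treated CALDOX. Of all probe sets 5.45%, 6.99% and 3.17% were called higher in these comparisons. Markers of the line itself were uneven in untreated CAL51. The epithelial genes KRT8, KRT18 and EPCAM read 12.55, 14.11 and 11.88, while KRT19 (6.59 and 6.38) and CDH1 (7.34 and 5.82) were dim on both of their sets. VIM, a mesenchymal marker, read 12.58 on 1 set and 4.21 on the other. Between the untreated lines these and other markers moved as follows, and their part in the metallothionein difference was not tested. Of all probe sets 9.32% were called higher and 9.75% lower in untreated CALDOX. Of the 9 sets of line markers 2 were higher in CALDOX, KRT19 201650_at (6.59 to 11.35) and EPCAM (11.88 to 12.32). In the other direction 4 were lower, namely VIM 201426_s_at (12.58 to 10.86), CDH1 201131_s_at (7.34 to 5.99), KRT8 and KRT18. Of 13 probe sets of blood cell markers 0 were called higher (limma; 2 at an unadjusted p under 0.05). Of 10 endothelial sets 3 were higher, all of PECAM1 (2.07 to 2.51), and none of VWF, CDH5 or TEK was called. Group means over the 10 sets ran from 4.96 to 8.78 in untreated CAL51 and from 4.85 to 9.25 in untreated CALDOX. Of 21 fibroblast sets 5 were lower, of COL1A1 and COL1A2, and their group means ran from 3.42 to 12.31 in untreated CAL51 and from 3.38 to 9.94 in untreated CALDOX.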

How the data were processed

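Total RNA from 15 cultures of CAL51 and CALDOX was hybridised to Affymetrix arrays, 3 in each of 5 groups. The authors deposited RMA values, per the submitters' processing notes; the method subtracts background, quantile normalizes and combines the probes of each set, and no version is named. The deposited values, RMA output of the authors, were read as log2 because they lie between 3.08 and 14.76, the base being unstated in the labels, and were not normalized again. Of 54675 probe sets, 62 controls were left out; 41097 had 1 gene symbol, 1801 several and 11777 none in the platform annotation. limma 3.58.1 in R 4.3.3 (lmFit, eBayes) fitted 1 mean per group over the 15 arrays, with 10 residual and 6.27 prior degrees of freedom. P-values were two-sided and adjusted by the Benjamini-Hochberg method over 54613 probe sets, with calls at adjusted p under 0.05. The script was tested on simulated data. The number of arrays limits the precision, and dim probe sets understate fold changes. Every member probe set is reported in each comparison. From other lists the plan was to name up to 3 genes with the largest called change, and any metal-responsive, flanking or other metallothionein gene. For untreated CALDOX the zinc importer, copper and glucocorticoid lists go beyond this plan and name every gene with a called set. The 7 genes, the gene lists and the tests were chosen with earlier results of these data known. Settings varied were the normalization, the arrays and probe sets fitted, the variance model, array weights, the replicate block and leaving out each replicate. The main fit did not pair samples by replicate number. The deviations of same-numbered arrays of different groups correlated from -0.40 to 0.43, and 9 of 30 pairs were above 0.1. Between CAL51 24 h and CAL51 48 h they correlated at 0.08, 0.34 and 0.43. Each of these was above the array's highest correlation with another number (0.01, 0.08 and -0.16). In the other pairs of groups this did not hold for every array. A pairing of some cultures is therefore not excluded. Promoters and the order of genes along chromosome 16 came from RefSeq's GRCh38.p14. No coordinates of the array files were used, as the build behind them is not stated here.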

Additional observations from a re-analysis of the deposited data

Results flagged for a closer look

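MT1M 217546_at responded differently in the lines at 24 h. The CALDOX change (-0.89) minus the CAL51 change (0.01) was -0.90 ± 0.14 on the log2 scale, tested as the difference itself in the limma fit (adjusted p = 0.00378, n = 3 arrays in each of 4 groups). All 3 treated CALDOX arrays were below all 3 untreated ones, while the CAL51 arrays overlapped. Without any one of the 12 arrays the difference ran from -0.997 to -0.830. Over those and the other settings its adjusted p ran from 7.45e-05 to 0.0150. Dose, drug-free passages and line differ together in this comparison and cannot be told apart. No group held more than 3 arrays, so single arrays were not tested as outliers.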

How the results depend on the processing

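Of 504 single probe set results recomputed with all arrays under other settings, 469 kept their direction and side of the threshold, 11 lost a call, 22 gained one, and 2 that were never called changed sign. Of 462 with 1 array left out, 425 kept both, 22 lost a call, 2 gained one, and 13 that were never called changed sign. No called value reversed. The 10 members higher in untreated CALDOX numbered 10 without any one replicate, and 1 with the _x_at sets left out. The 10 lower in treated CALDOX numbered 9 to 9 without any one replicate, and 1 without the _x_at sets. In CAL51 at 24 h the 1 member called lower became 0 with median centring, 0 with only the arrays compared, 0 without the _x_at sets, 2 with an intensity trend and robust prior, 4 with array weights, and 0 to 1 without a replicate. At 48 h the 5 became 2 with median centring, 2 with only the arrays compared, 1 without the _x_at sets, and 2 to 5 without a replicate. For 48 h against 24 h the 1 became 0 with only the arrays compared. For the difference of responses the 1 became 3 with the brightest probe set per gene, 2 with quantile normalization repeated, 5 with the trend and robust prior, 6 with array weights, 2 with dim probe sets (mean under 5) left out, and 1 to 2 without a replicate. The cause of these changes was not tested beyond what each setting removes. With the replicate number as a block, the member counts stayed at 1, 5, 1, 10, 10 and 1, and no call count of members moved.

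Over all probe sets, calls in CAL51 at 24 h went from 4420 to 2365 with only the arrays compared and 9969 with array weights, where the share of calls that were higher went from 67.4% to 52.3%, and to 1999 of 19775 with the brightest set per gene (57.1% higher). Calls for 48 h against 24 h went from 3557 to 855 and 7701 under the first pair of settings, those in treated CALDOX from 3219 to 7225 with array weights, and those for the difference of responses from 483 to 911 with the trend and 2639 with array weights.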
